A study of Mus musculus with 6 samples.

Results

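The genes described here are 10 receptor chains through which cells sense interleukin-1 (IL-1), tumour necrosis factor (TNF), the IL-6 family, IL-17 and IL-4. They are Il1r1, Il1rap, Tnfrsf1a, Tnfrsf1b, Il6st, Lifr, Osmr, Il11ra1, Il17ra and Il4ra. They were taken by symbol from a table of 26969 mouse genes, and all 10 were found, each as 1 gene entry. Poly(A) RNA was sequenced from wild-type mouse chondrocytes, the cells that build cartilage matrix, in 2 groups of 3 libraries called mAC_Mito and mAC. The series compares chondrocytes that received transplanted mitochondria with chondrocytes that did not, and its title names osteocytes as the source of the organelles. The labels disagree on which group is which. The sample description calls a library mAC_Mito where its title and treatment field say vehicle, and calls it mAC where those fields say mitochondria. Both label sets split the libraries in the same way, so differences are given as mAC_Mito minus mAC and none is called an effect of mitochondria. The labels give no age, sex or tissue site for the mice. They also do not say that replicates came from separate animals or cultures, so each p-value reflects only how far these libraries scatter, and that scatter may be technical.

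IL-1 binds the IL-1 receptor (Il1r1), which then recruits an accessory chain (Il1rap), and the complex signals through the adaptor MyD88 to the transcription factor NF-kB. TNF has a death-domain receptor that most cells carry (Tnfrsf1a, TNFR1) and one with narrower expression and no death domain (Tnfrsf1b, TNFR2). The IL-6 family shares the signalling chain gp130 (Il6st), which pairs with a chain that sets which ligand is sensed, such as those for leukaemia inhibitory factor (Lifr), oncostatin M (Osmr) or IL-11 (Il11ra1), and activates JAK kinases and STAT3. Il17ra is the shared chain of the IL-17 receptors, and Il4ra is the chain common to both IL-4 receptor types. In cartilage, IL-1 and TNF are known for inducing matrix-degrading enzymes and lowering matrix synthesis.

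Total counts were between 59116068 and 68378213 per library. The chondrocyte identity of the samples was checked on 12 marker genes: all 12 had a mean of at least 1 FPKM (fragments scaled to gene-model length and sequencing depth), led by Col2a1, and their summed level was 2350 to 3340 FPKM in mAC_Mito and 2460 to 2890 FPKM in mAC. Of 14 macrophage and leukocyte markers, all were counted in every library and 7 averaged under 1 FPKM. Their sum, most of it Lyz2, was 77.7 to 125 FPKM in mAC_Mito and 70.8 to 87.1 FPKM in mAC. Of these 14, 11 had a log2 fold change (mAC_Mito minus mAC) above 0 and 3 below, with a median of 0.315. Itgam alone had an unadjusted p under 0.05 by edgeR, 1 of 14 beside 3.19% of all genes tested. All 7 endothelial markers averaged under 1 FPKM. Among 6 fibroblast markers, led by Col1a1, 5 averaged at least 1 FPKM and the sum was 408 to 804 FPKM in mAC_Mito and 407 to 534 FPKM in mAC. Of 8 osteoblast and osteocyte markers 7 were in the table, and their sum was at least 15.5 FPKM in every mAC_Mito library and at most 13.6 FPKM in every mAC library. Of these only Bglap2 did not overlap between groups, while Ibsp, the most abundant, and Sp7 overlapped. Of the 5 tested, 4 had a log2 fold change above 0 and 1 (Bglap, -0.15) below. Bglap2 alone had an unadjusted p under 0.05 by edgeR (0.00288, adjusted 0.99992), 1 of 5 beside 3.19% of all genes tested. Bglap2 was at 4.05, 2.49 and 3.56 FPKM in mAC_Mito and 1.0, 1.35 and 1.75 FPKM in mAC. In the other marker lists Itgam (leukocyte) and Pi16 (fibroblast, 10 to 30 counts per library) also did not overlap in FPKM, both higher in mAC_Mito. Over all genes tested, 7.31% did not overlap in FPKM, 3.76% higher and 3.54% lower in mAC_Mito. In CPM (counts scaled to library size) the leukocyte markers Adgre1 and Cd52 did not overlap either, both higher in mAC_Mito. No share over all genes is given for CPM. The 8 skeletal muscle markers, led by Acta1, summed to 27.1, 22.8 and 28.2 FPKM in mAC_Mito and 16.6, 20.5 and 25.2 FPKM in mAC; all 8 had a log2 fold change above 0 (median 0.305), and 0 had an unadjusted p under 0.05 by edgeR. The part of these other cell types in the receptor values was not tested. In whole-culture RNA, fewer cells of a type and less RNA per cell cannot be told apart.

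The promoters of 5 of these receptors are shown because they belong to the pairs on which the levels below turn. These are, first, Tnfrsf1a, the highest receptor, and Tnfrsf1b, the other TNF receptor. The gp130 partners on chromosome 15 that differed most in level (Osmr and Lifr) follow, and then the one receptor whose groups did not overlap (Il4ra). The choice was made after the values were seen. Each sequence runs from 250 bases before to 50 bases after a RefSeq transcription start on GRCm38.p6, and 9 of the 10 genes, in 12 windows, were in that table. Capitals mark matches on either strand to an NF-kB-type motif (GGG, any 2 bases, then TTTCC), a STAT-type motif (TTC, any 3 bases, then GAA) or a GC box (GGGCGG).
Tnfrsf1a (chr6:125349473-125349772, plus strand): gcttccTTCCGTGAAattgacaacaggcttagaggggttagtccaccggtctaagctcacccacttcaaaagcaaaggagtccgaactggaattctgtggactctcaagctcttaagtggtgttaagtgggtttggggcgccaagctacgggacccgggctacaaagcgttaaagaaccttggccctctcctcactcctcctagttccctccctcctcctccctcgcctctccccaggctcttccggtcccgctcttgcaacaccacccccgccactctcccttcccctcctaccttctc
Tnfrsf1b (chr4:145246821-145247120, minus strand): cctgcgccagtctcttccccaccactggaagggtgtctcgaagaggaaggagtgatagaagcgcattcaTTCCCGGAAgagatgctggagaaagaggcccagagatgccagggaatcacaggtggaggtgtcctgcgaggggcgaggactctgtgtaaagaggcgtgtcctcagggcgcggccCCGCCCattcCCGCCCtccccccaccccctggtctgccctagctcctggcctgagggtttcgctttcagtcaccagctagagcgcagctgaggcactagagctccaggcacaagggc
Osmr (chr15:6874264-6874563, minus strand): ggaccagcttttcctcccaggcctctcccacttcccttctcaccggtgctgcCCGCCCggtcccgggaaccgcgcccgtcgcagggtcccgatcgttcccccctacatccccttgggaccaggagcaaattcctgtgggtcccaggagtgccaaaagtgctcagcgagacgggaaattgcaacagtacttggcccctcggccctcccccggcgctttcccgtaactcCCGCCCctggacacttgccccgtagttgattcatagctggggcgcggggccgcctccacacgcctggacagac
Lifr (chr15:7129322-7129621, plus strand): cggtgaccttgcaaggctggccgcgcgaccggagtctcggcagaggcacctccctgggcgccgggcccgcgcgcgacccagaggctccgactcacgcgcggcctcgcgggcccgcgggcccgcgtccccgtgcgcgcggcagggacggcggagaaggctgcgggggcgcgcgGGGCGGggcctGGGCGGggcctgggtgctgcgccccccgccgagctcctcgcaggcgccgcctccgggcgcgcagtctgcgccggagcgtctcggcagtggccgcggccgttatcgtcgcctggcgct
Il4ra (chr7:125552021-125552320, plus strand): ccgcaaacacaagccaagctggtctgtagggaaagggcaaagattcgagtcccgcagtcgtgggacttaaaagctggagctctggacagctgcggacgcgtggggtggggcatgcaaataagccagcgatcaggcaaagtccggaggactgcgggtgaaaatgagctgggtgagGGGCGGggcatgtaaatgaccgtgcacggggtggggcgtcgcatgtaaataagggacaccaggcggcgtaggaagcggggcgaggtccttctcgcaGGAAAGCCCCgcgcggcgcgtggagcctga
Tnfrsf1a and Tnfrsf1b each held 1 STAT-type match, starting at -244 and -181 relative to the start site, and no other receptor window held one. The match in Tnfrsf1a read TTCCGTGAA and that in Tnfrsf1b TTCCCGGAA. Il4ra held the only NF-kB-type match among the 12 windows, GGAAAGCCCC, which began at base 21 of the transcript. Tnfrsf1a was the only one of the 5 printed windows with no GC box. Osmr and Lifr held 2 each, as did Tnfrsf1b, and Il4ra held 1. Among 32851 windows of equal length, 1.63% held the NF-kB-type letters, 8.3% the STAT-type letters and 35.66% the GC box. A TATA box (TATAAA), present in 13.62% of all windows, was in none of the receptor windows. The printed Lifr window was 81.3% G and C, against a median of 52.7% over all windows. Lifr has another RefSeq start further downstream, in a window of 53.3% G and C that held none of these motifs. The counts do not tell which start was used, and the matches are descriptions of the letters only.

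The receptors formed a ladder of levels that was nearly the same in every library and in both groups. The TNF receptor Tnfrsf1a stood at the top with a mean of 61.2 FPKM over the 6 libraries, and Lifr at the bottom with 0.66 FPKM, a span of 92.7-fold. Between them came Il6st (38.4 FPKM), Osmr (14.9), Il11ra1 (13.1), Il4ra (9.16), Tnfrsf1b (8.46), Il1r1 (7.93), Il17ra (2.63) and Il1rap (1.12). Tnfrsf1a and Il6st held the first and second rank in all 6 libraries, and Il17ra, Il1rap and Lifr the lowest 3 ranks in that order. The ranges of Osmr and Il11ra1 overlapped, as did those of Il4ra and Tnfrsf1b and those of Tnfrsf1b and Il1r1, so these neighbours did not differ beyond their spread; in each of these pairs the upper gene was higher in 4 of 6 libraries. All other neighbours were ordered alike in 6 of 6 libraries with no overlap, although Il11ra1 came close to Il4ra, with a lowest value of 9.95 FPKM against a highest of 9.93 FPKM. The FPKM values scale with the union of annotated exons, which runs from 2591 bases for Tnfrsf1a to 12113 for Osmr, so a gene with long alternative exons is given a lower level than a count of its main transcript would give.

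**Figure D1:**
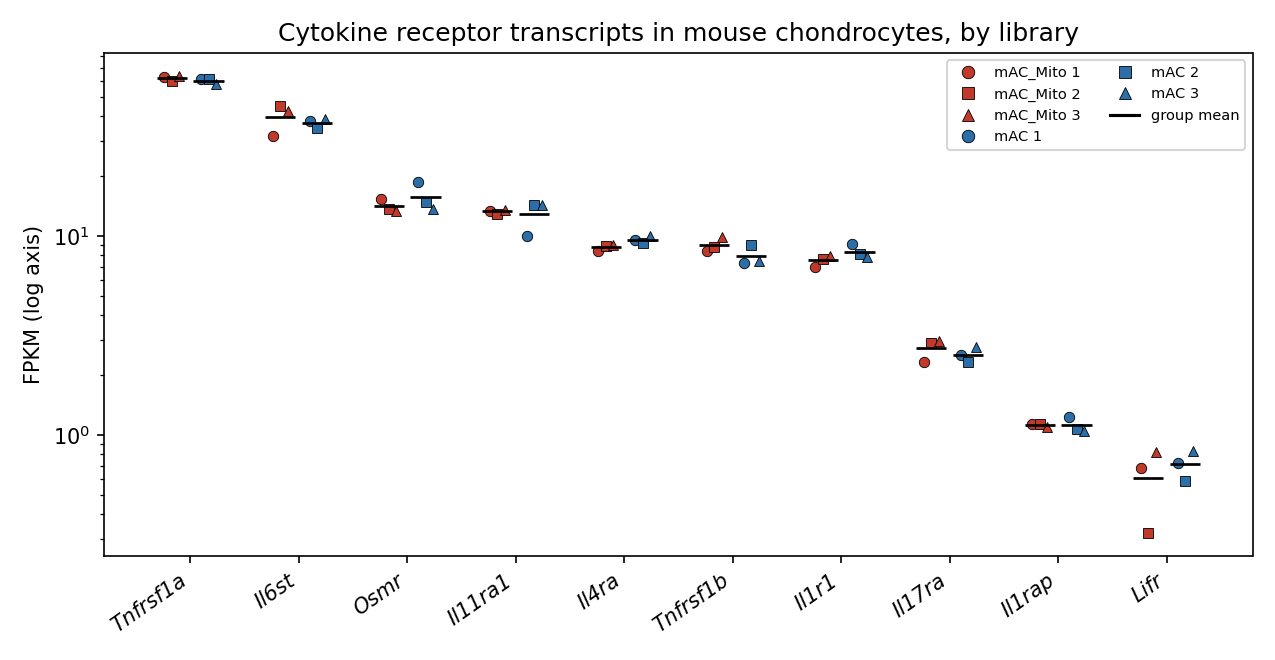
FPKM on a log axis for the 10 receptor genes, ordered by mean level, with one point per library (mAC_Mito in red, mAC in blue, marker shape for the replicate number) and a bar for each group mean. The groups lie on top of each other for most genes, from Tnfrsf1a near 61.2 FPKM down to Lifr near 0.66 FPKM, and mAC_Mito 2 is the low point for Lifr.

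No receptor gene passed the test for a difference between the groups. All 10 passed the filter on low counts, with 235 to 33654 counts per gene and library, and 0 of 10 were called by edgeR's quasi-likelihood test at a Benjamini-Hochberg adjusted p under 0.05, where 0.0113% of 17645 genes tested were called (2 genes, 0.00567% higher and 0.00567% lower in mAC_Mito). DESeq2 and limma on FPKM also called 0 of 10. At an unadjusted p under 0.05 the count was again 0 of 10, against 3.19% of all genes (2.1% higher and 1.09% lower). The 10 log2 fold changes ran from -0.24 (Lifr) to 0.16 (Tnfrsf1b), with 5 above and 5 below 0, and their median was 0.003, beside a median of 0.0016 over all genes tested. For the 9 receptors other than Lifr, the 95% intervals together reached from 0.688-fold to 1.34-fold, so larger differences than these lay outside the intervals. For Lifr the interval was wider, from 0.526-fold to 1.36-fold. Across all 6 libraries the receptors had a median standard deviation of 0.15 in log2 CPM (counts scaled to library size), against 0.209 for all genes tested. These 2 values were not matched for level: 7 of the 10 receptors averaged at least 5 FPKM, and the genes tested include many with low counts.

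**Figure D2:**
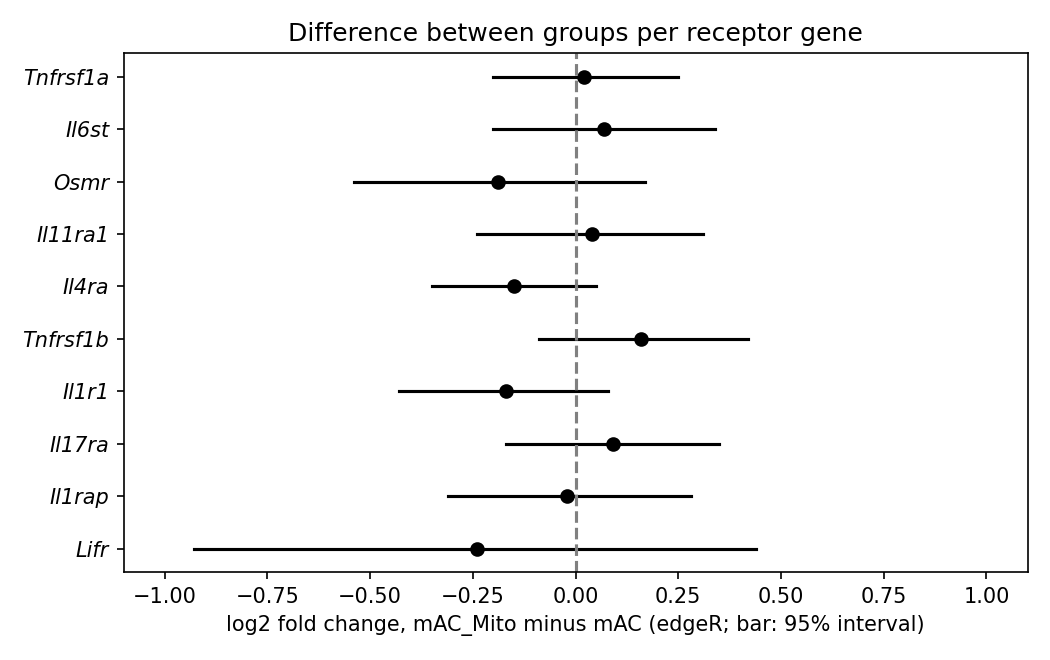
Log2 fold change of each receptor gene, mAC_Mito minus mAC, from edgeR's quasi-likelihood test (points) with its 95% interval (bars), genes ordered from the highest mean level at the top to the lowest. All 10 intervals include 0, and that of Lifr, from -0.93 to 0.44, is the widest.

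Among the receptors of the IL-1 pathway, the ligand-binding chain was well above its accessory chain in level. Il1r1 (chromosome 1, 40225080 to 40317257) was at 6.99, 7.65 and 7.96 FPKM in mAC_Mito 1, 2 and 3 and at 9.07, 8.08 and 7.84 FPKM in mAC 1, 2 and 3. The groups overlapped only through mAC_Mito 3, which exceeded mAC 3, and the fold change was -0.17 ± 0.11 on the log2 scale (SE, edgeR adjusted p = 0.99992), or -0.056 without mAC 1. Il1rap (chromosome 16, 26581704 to 26730117) was at 1.14, 1.14 and 1.09 FPKM in mAC_Mito and 1.23, 1.07 and 1.05 FPKM in mAC, with mAC 1 the highest and both groups averaging 1.12 FPKM. The ratio of Il1r1 to Il1rap within a library does not depend on scaling between libraries. It was 6.14, 6.73 and 7.27 in mAC_Mito and 7.39, 7.52 and 7.46 in mAC. Every mAC_Mito ratio thus lay below every mAC ratio, by 0.15 on the log2 scale, and the two-sided exact permutation test gave p = 0.1, the smallest that 3 against 3 libraries allow, or 0.4 after adjustment over the 4 ratios compared. The ratio depends on the union-exon lengths of 6363 bases for Il1r1 and 11360 for Il1rap, which are the same in all libraries.

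Other members of the IL-1 receptor family were fixed as part of a list of 18 further receptors. Il1rl1, which encodes ST2, the receptor for IL-33, was the most abundant of that list and stood above Il1r1 itself. It was at 14.1, 14.1 and 13.7 FPKM in mAC_Mito and 16.8, 15.8 and 15.4 FPKM in mAC, with no overlap between the groups (log2 fold change -0.22, standard error 0.10, edgeR adjusted p = 0.99992). Without overlap and lower in mAC_Mito were 3.54% of all genes tested. The decoy receptor Il1r2, which binds IL-1 without signalling, had 4 to 14 counts per library, too few to be tested. Sigirr, an inhibitory member of the family, had the smallest unadjusted p of the list together with Il13ra1 (0.0445 for both) and rested on 7, 4 and 0 counts in mAC_Mito and 11, 30 and 12 counts in mAC. Il1rl2, the IL-36 receptor, averaged 1.2 ± 0.171 FPKM in mAC_Mito and 1.06 ± 0.0434 FPKM in mAC (SD, n = 3 each).

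The TNF receptors were set apart by their levels, and the groups overlapped for each. Tnfrsf1a (chromosome 6, 125349362 to 125361874) was at 62.8, 60.2 and 63.6 FPKM in mAC_Mito and 61.6, 61.2 and 57.8 FPKM in mAC, higher than 97.5% of the genes in the table, and its highest library exceeded its lowest by only 1.1-fold. The log2 fold change was 0.02 with a 95% interval from -0.20 to 0.25. Tnfrsf1b (chromosome 4, 145213463 to 145246870) was at 8.39, 8.77 and 9.83 FPKM in mAC_Mito and 7.31, 8.98 and 7.46 FPKM in mAC. Its groups overlapped because mAC 2 was higher than mAC_Mito 1 and mAC_Mito 2, and the fold change was 0.16 ± 0.11 on the log2 scale (SE, edgeR adjusted p = 0.99992). The ratio of Tnfrsf1a to Tnfrsf1b was 7.48, 6.87 and 6.47 in mAC_Mito and 8.43, 6.82 and 7.75 in mAC (exact permutation p = 0.3, adjusted 0.6). TNFR2 is also a receptor of leukocytes. The summed level of the 14 macrophage and leukocyte markers was 90.8, 77.7 and 125 FPKM in mAC_Mito and 70.8, 83.6 and 87.1 FPKM in mAC. The highest and the lowest library were the same for this sum and for Tnfrsf1b, mAC_Mito 3 and mAC 1, while the other 4 were not in the same order. The part of such cells in the Tnfrsf1b level was not tested.

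In the IL-6 family, the shared chain gp130 was abundant and its partners were dominated by the receptors for oncostatin M and IL-11. Il6st (chromosome 13, 112464070 to 112510086) was at 31.8, 44.8 and 42.2 FPKM in mAC_Mito and 37.6, 34.8 and 38.8 FPKM in mAC. The mAC_Mito group held both the lowest library and the highest ones, so the groups overlapped fully (log2 fold change 0.07, standard error 0.12). Osmr (chromosome 15, 6813577 to 6874969) was at 15.3, 13.6 and 13.4 FPKM in mAC_Mito and 18.7, 14.8 and 13.7 FPKM in mAC. The high value of mAC 1 set its log2 fold change of -0.19, which was 0.013 without that library. Lifr (chromosome 15, 7090614 to 7197489), whose gene begins 216 kb beyond the end of Osmr in the table's coordinates, was at 0.679, 0.321 and 0.822 FPKM in mAC_Mito and 0.721, 0.586 and 0.833 FPKM in mAC. It was the most variable receptor, with 2.59-fold between its highest and lowest library, whereas the other 9 stayed under 1.5-fold. Library mAC_Mito 2, with 235 counts against 500 to 642 in mAC, carried the difference: the log2 fold change of -0.24 became 0.073 without it.

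**Figure D3:**
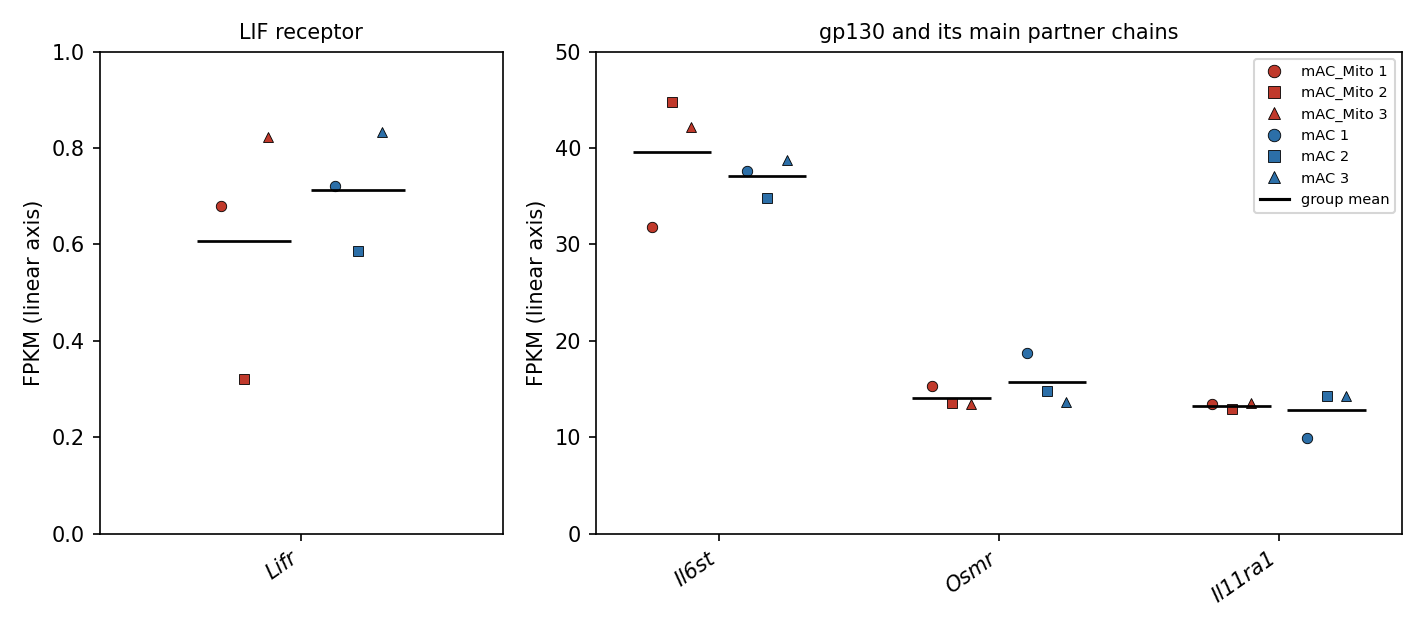
FPKM on linear axes for Lifr (left) and for Il6st, Osmr and Il11ra1 (right), one point per library (mAC_Mito in red, mAC in blue, marker shape for the replicate number) with bars for group means. Lifr reaches at most 0.833 FPKM and is lowest in mAC_Mito 2 at 0.321 FPKM, Il6st is lowest in mAC_Mito 1 at 31.8 FPKM, and Osmr is highest and Il11ra1 lowest in mAC 1.

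Osmr outnumbered Lifr per length in every library. The ratio of Osmr to Lifr was 22.6, 42.4 and 16.3 in mAC_Mito and 25.9, 25.3 and 16.5 in mAC (exact permutation p = 0.9, adjusted 0.9). The ratio of Il6st to Lifr was 46.9, 140 and 51.4 in mAC_Mito and 52.1, 59.4 and 46.6 in mAC (exact permutation p = 0.8, adjusted 0.9). Both ratios were highest in mAC_Mito 2, the library with the least Lifr. FPKM was also summed over 7 other receptor chains of the IL-6 family (Osmr, Il11ra1, Lifr, Il6ra, Cntfr, Il27ra and Il31ra). Osmr and Il11ra1 together made up 93.5% to 94.4% of that sum in all 6 libraries. Lifr took 1.14% to 2.86%, and Il6ra, the IL-6-binding chain, 1.47% to 2.91%. The sum of the 7 chains itself was 28.1 to 31.1 FPKM, so Il6st stood at 1.04 to 1.6 times that sum.

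Il11ra1 (chromosome 4, 41699989 to 41769474) was at 13.4, 12.9 and 13.5 FPKM in mAC_Mito and 9.95, 14.3 and 14.3 FPKM in mAC, with mAC 1 low and the other 5 libraries close together. Its log2 fold change was 0.04 (95% interval -0.24 to 0.31). In the share of the 7 chains, mAC 1 stood apart in both large ones, with 61.1% Osmr and 32.5% Il11ra1. The other libraries held 46.6% to 50.2% Osmr in mAC_Mito and 46.2% to 47.5% in mAC. The counts of Il11ra1 carry 2 limits. Its gene model spans several neighbours, among them Dctn3 on the opposite strand, with 1443 to 2492 counts, and Galt on the same strand, with 1047 to 1623 counts. The mouse genome also holds near-identical IL-11 receptor copies: Il11ra2 had 25, 15 and 79 counts in mAC_Mito and 18, 183 and 94 in mAC, and Gm13305 had 27, 6 and 28 in mAC_Mito and 14, 97 and 24 in mAC. How reads shared between such genes were assigned is not stated in the labels, so the split among the IL-11 receptor genes is uncertain.

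The IL-4 receptor chain was the one receptor whose groups did not overlap. Il4ra (chromosome 7, 125552120 to 125579474) was at 8.39, 8.86 and 9.02 FPKM in mAC_Mito and 9.55, 9.22 and 9.93 FPKM in mAC. On the log2 scale the fold change was -0.15 ± 0.09, with a 95% interval from -0.35 to 0.05 (SE, edgeR adjusted p = 0.99992), lower in 3 of 3 mAC_Mito libraries. A count of 1 in 10 without overlap stands beside 7.31% of all 17645 genes in either direction, 3.76% higher and 3.54% lower in mAC_Mito, so the share is near the background. Il13ra1, the chain that joins Il4ra in the type of IL-4 and IL-13 receptor found outside blood cells, was in the same order, at 12.3, 11.7 and 12.4 FPKM in mAC_Mito and 13.4, 13.3 and 15.3 FPKM in mAC. On the log2 scale its fold change was -0.22 ± 0.10 (SE, edgeR unadjusted p = 0.0445, adjusted p = 0.99992). Il2rg, the common gamma chain used with Il4ra on blood cells, averaged 0.209 ± 0.0667 FPKM in mAC_Mito and 0.267 ± 0.0602 FPKM in mAC (SD, n = 3 each). Il17ra (chromosome 6, 120463247 to 120487559) was at 2.33, 2.9 and 2.98 FPKM in mAC_Mito and 2.52, 2.32 and 2.75 FPKM in mAC. Its groups overlapped only through mAC_Mito 1. The log2 fold change of Il17ra was 0.09, or 0.017 without mAC 2 and 0.16 without mAC_Mito 1. Its partner for IL-17A, Il17rc, was at 7.58, 7.53 and 7.91 FPKM in mAC_Mito and 7.21, 8.82 and 9.46 FPKM in mAC, above Il17ra in every library.

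**Figure D4:**
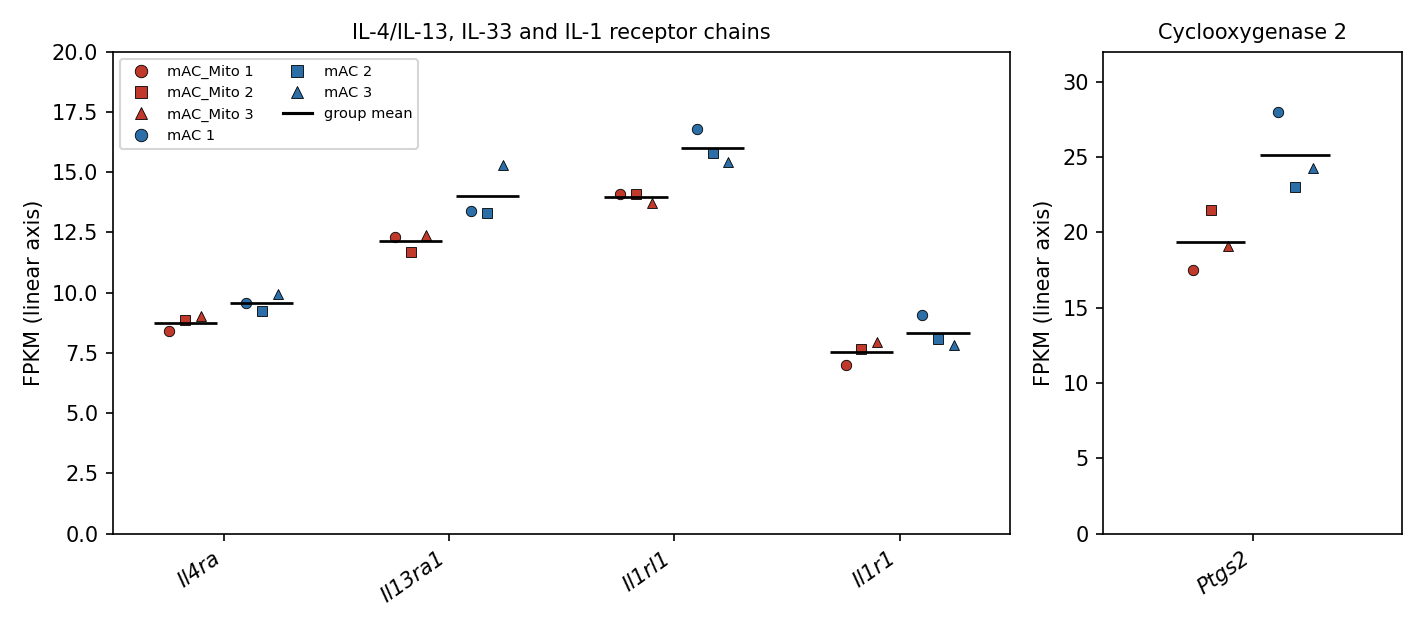
FPKM on linear axes for Il4ra, Il13ra1, Il1rl1 and Il1r1 (left) and for Ptgs2 (right), one point per library (mAC_Mito in red, mAC in blue, marker shape for the replicate number) with bars for group means. The groups do not overlap for Il4ra, Il13ra1, Il1rl1 and Ptgs2 and overlap for Il1r1, and no gene shown passed an adjusted p of 0.05.

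The ligands of these receptors were mostly scarce. Of 22 ligands and soluble antagonists fixed as a list, 20 were in the table, 8 averaged at least 1 FPKM, and 9 never exceeded 25 counts in any library. Il1b had 0 counts in each mAC_Mito library, which allows up to 3 counts each, and 4, 21 and 7 counts in mAC 1, 2 and 3; it did not pass the filter and was not tested. Tnf had 10, 4 and 0 counts in mAC_Mito and 0, 7 and 16 in mAC, and Osm 0 in each mAC_Mito library and 3, 0 and 0 in mAC. The IL-1 receptor antagonist Il1rn, which blocks Il1r1, was at 4.37, 2.33 and 3.55 FPKM in mAC_Mito and 4.47, 3.47 and 3.47 FPKM in mAC. Il6 was at 2.51, 2.4 and 2.37 FPKM in mAC_Mito and 2.34, 2.96 and 3.88 FPKM in mAC, the smallest unadjusted p of the list (0.0746). Lif was at 1.78, 1.26 and 1.61 FPKM in mAC_Mito and 1.74, 1.93 and 1.93 FPKM in mAC. Il18, an IL-1 family cytokine, averaged 6.33 ± 0.855 FPKM in mAC_Mito and 7.34 ± 0.671 FPKM in mAC (SD, n = 3 each). Of the 13 members tested, 0 were called by edgeR and 0 had an unadjusted p under 0.05, beside 0.0113% and 3.19% of all genes tested. The median log2 fold change of the 13 was 0.024.

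No gene of the intracellular side of the pathways passed the test either. All 17 adaptors and ubiquitin ligases were tested and 0 were called, with 0 at an unadjusted p under 0.05. Over all genes tested these shares were 0.0113% and 3.19%, so counts of 0 in lists of this size lie near the background. The log2 fold changes of the 17 ran from -0.17 to 0.20, with a median of 0.018. Tab2, which couples TRAF6 to the kinase TAK1, averaged 20.2 ± 0.699 FPKM in mAC_Mito and 22.2 ± 6.11 FPKM in mAC. Myd88 averaged 16.1 ± 0.497 FPKM in mAC_Mito and 16.2 ± 1.75 FPKM in mAC. Traf3ip2, the adaptor of the IL-17 receptor, averaged 3.53 ± 0.367 FPKM in mAC_Mito and 3.01 ± 0.292 FPKM in mAC. Among 15 JAK kinases, STAT factors and NF-kB core genes 0 were called and 1, Jak3, had an unadjusted p under 0.05. Jak3 was also the only 1 of the 15 without overlap between groups, beside 7.31% of all genes tested (3.76% higher). The median log2 fold change of the 15 was 0.047. Jak1, the main kinase bound to gp130, averaged 21.1 ± 1.79 FPKM in mAC_Mito and 20.3 ± 0.638 FPKM in mAC, and Stat6, the factor downstream of Il4ra, 21.1 ± 1.29 and 20.4 ± 1.22 FPKM in the same order. Jak3, the kinase bound to the common gamma chain, did not overlap between groups, at 0.949, 1.03 and 1.3 FPKM in mAC_Mito and 0.734, 0.822 and 0.875 FPKM in mAC (log2 fold change 0.41, standard error 0.16, edgeR unadjusted p = 0.0341, adjusted p = 0.99992).

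Feedback and shedding genes also overlapped between the groups. Of 14 feedback inhibitors 0 were called and 0 had an unadjusted p under 0.05, beside 0.0113% and 3.19% of all genes tested. The median log2 fold change of the 14 was -0.056. Socs3, which STAT3 induces and which binds gp130 to stop its signal, was the most abundant, at 14.7, 17.8 and 18.5 FPKM in mAC_Mito and 15.1, 18.5 and 19.3 FPKM in mAC. Otulin, which trims linear ubiquitin chains, averaged 14.3 ± 0.74 FPKM in mAC_Mito and 15.2 ± 0.285 FPKM in mAC. Tnfaip3, which encodes the NF-kB inhibitor A20, was low, at 0.28 ± 0.0704 FPKM in mAC_Mito and 0.344 ± 0.0397 FPKM in mAC. Of 6 genes that cut cytokine receptors from the cell surface or control that step, 0 were called and 0 had an unadjusted p under 0.05. Timp3, an inhibitor of the sheddase ADAM17, averaged 363 ± 29.7 FPKM in mAC_Mito and 364 ± 42.0 FPKM in mAC, the sheddase Adam10 21.1 ± 3.11 and 20.2 ± 1.41 FPKM, and Rhbdf1, which brings ADAM17 to the surface, 7.8 ± 0.688 and 6.69 ± 0.906 FPKM (SD, n = 3 each).

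Response genes of IL-1, TNF and gp130 signalling had the lowest median after the further receptors. Of 17 in the list 16 were tested, 0 were called by edgeR and 2 had an unadjusted p under 0.05, both lower in mAC_Mito, beside 1.09% of all genes tested; the median log2 fold change was -0.154, with 4 above and 12 below 0. The median of the 18 further receptors, of which 16 were tested and 0 called, was -0.168. Of those 16, 2 had an unadjusted p under 0.05, both lower in mAC_Mito, and 3 lower and 1 higher did not overlap. Ptgs2, the inducible cyclooxygenase, had the smallest unadjusted p of the response list (0.00854), with 19.4 ± 2.05 FPKM in mAC_Mito and 25.1 ± 2.59 FPKM in mAC (SD, n = 3 each), without overlap. The collagenase Mmp13 averaged 47.0 ± 3.43 FPKM in mAC_Mito and 52.3 ± 2.37 FPKM in mAC, and the acute-phase gene Saa3 43.7 ± 11.2 and 50.3 ± 18.1 FPKM in the same order. Over the 7 lists together, 97 of 109 genes were tested, 0 were called, 5 had an unadjusted p under 0.05 (1 higher and 4 lower in mAC_Mito), and 9 did not overlap between groups (3 higher and 6 lower). Over all 17645 genes tested, 3.19% had such a p (2.1% higher and 1.09% lower) and 7.31% did not overlap (3.76% higher and 3.54% lower). The share without overlap in either direction is thus near the background. Genes lower in mAC_Mito were above their shares, with 4 of 97 beside 1.09% and 6 of 97 beside 3.54%, which was not tested. The overlaps counted here are those of FPKM, and they depend on the scaling. In CPM, Il18rap, Lif and Ccl7 were also lower in mAC_Mito without overlap, while Vcam1, counted as lower in FPKM, overlapped. No share over all genes is given for CPM. The median log2 fold change of the 97 genes was -0.003.

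**Figure D5:**
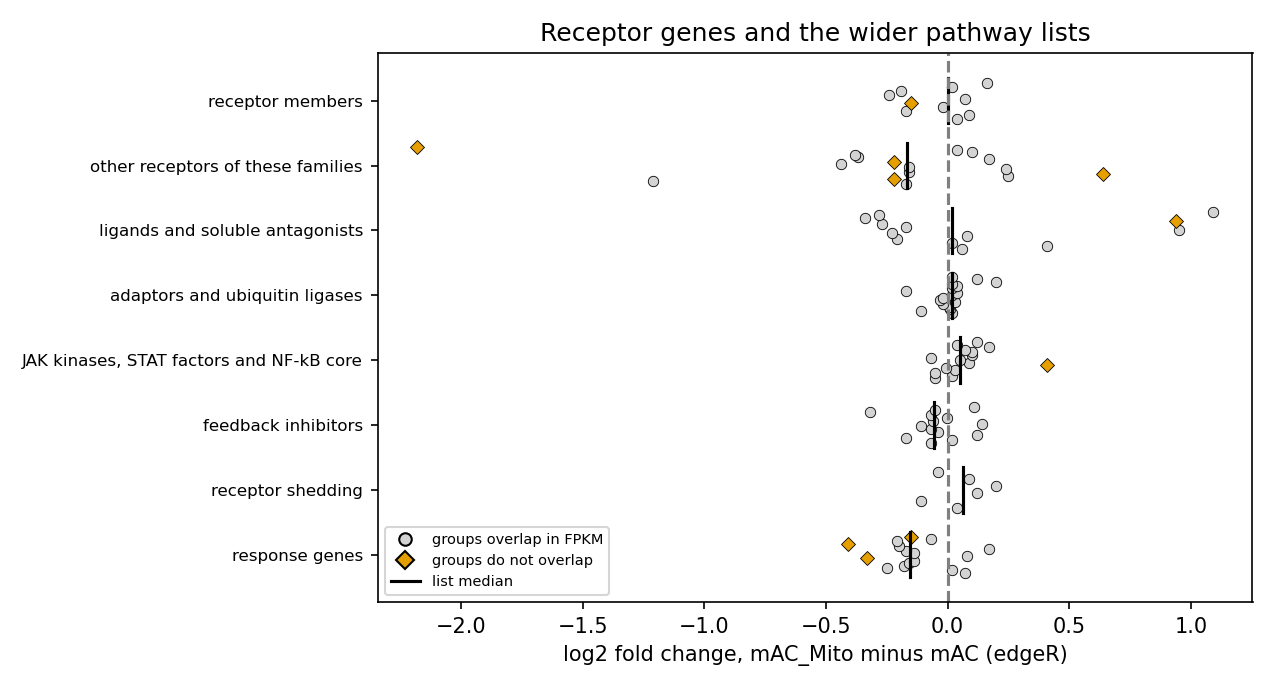
Log2 fold change, mAC_Mito minus mAC, of every tested gene in the receptor list and the 7 wider lists (points), with the list median as a vertical bar. Orange diamonds mark genes whose FPKM values do not overlap between groups: 1 of the 10 receptors and 9 of the 97 wider genes, beside 7.31% of all genes tested. No gene shown passed an adjusted p of 0.05 by edgeR.

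For each receptor the gene with the most similar pattern over the 6 libraries was taken from 6143 genes averaging at least 5 FPKM, by Pearson correlation of log2 CPM. It was Tacc3 for Il1r1 (r = 0.976), Masp1 for Il1rap (0.999), Naa60 for Tnfrsf1a (0.996), Klf2 for Tnfrsf1b (0.988) and Man2a1 for Il6st (0.992). It was Chil1 for Lifr (0.969), Golph3 for Osmr (0.998), Eny2 for Il11ra1 (0.995), Lrrc58 for Il17ra (0.973) and Khdc4 for Il4ra (0.984). With 6 points drawn from the same libraries such values are common: between 14 (Lifr) and 327 (Osmr) of the 6143 genes exceeded r = 0.9 with a given receptor. The correlations describe these 6 libraries and carry no test.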

How the data were processed

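Poly(A) RNA of 6 mouse chondrocyte libraries was sequenced as paired ends on an Illumina NovaSeq, per the labels' protocols. The authors deposited 1 table with a raw read count and an FPKM value per gene and library, per the file headers. The submitters' processing notes list HISAT2 2.0, StringTie 1.3.0, Bowtie 0.12.2 and the build mm8, with no roles. The coordinates are those of GRCm38: 26821 of 26902 identifiers (99.7%) shared at least 1 end with GENCODE M21. How reads were assigned to genes, and whether strand was used, is not stated in the labels.

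Counts were compared with edgeR 4.0.16 in R 4.3.3 (filterByExpr, minimum count 10 and minimum total 15; TMM; quasi-likelihood test; two-sided; Benjamini-Hochberg over 17645 genes; standard errors from the F statistic). Alternatives used other scalings and filters, DESeq2 1.42.0 and limma 3.58.1 on log2(FPKM + 1) and log2(FPKM + 0.1). Ratios of FPKM were compared by exact permutation. No 2 libraries of a group agreed within sampling noise (chi-square per degree of freedom at least 25.2). Named genes were all members and, per wider list, the 2 with the highest mean FPKM and the one with the smallest unadjusted p (1 gene that this rule names is not reported here); others (Il1rl2, Il2rg, Il17rc, Il1r2, Il1rn, Il1b, Tnf, Osm, Lif, Gm13305) were chosen after their values were seen, for their role. The members and lists were chosen with earlier results of these data known.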

Additional observations from a re-analysis of the deposited data

How the results depend on the processing

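In all 14 other settings 0 of the 10 receptors and 0 of the wider pathway genes were called (smallest adjusted p 0.805 and 0.694). Of 79 receptor values under other settings 77 kept their sign; the 2 that did not were those of Il1rap by limma, 0.0046 on log2(FPKM + 1) and 0.0091 on log2(FPKM + 0.1). Lifr was not tested with a filter of FPKM of at least 1 in 3 libraries. Myd88 likewise turned to 0.002 and 0.0024. Over the whole table, 2 genes were called in the report's test, 5 by DESeq2, 0 by limma on log2(FPKM + 1), 1 on log2(FPKM + 0.1) and 0 by edgeR with no filter, and leaving out 1 library gave 0 to 4 (0 without mAC_Mito 1 or 3, 4 without mAC_Mito 2 or mAC 3).

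With 1 library left out, 51 of 60 receptor values kept their sign. Those of the 4 receptors that kept it throughout ran from -0.25 to -0.056 for Il1r1, 0.092 to 0.25 for Tnfrsf1b, 0.017 to 0.16 for Il17ra and -0.19 to -0.1 for Il4ra. The log2 fold changes that changed sign ran from -0.094 to 0.11 for Il1rap, -0.037 to 0.09 for Tnfrsf1a, -0.005 to 0.17 for Il6st, -0.5 to 0.073 for Lifr, -0.31 to 0.013 for Osmr and -0.078 to 0.11 for Il11ra1, and, in the wider lists, from -0.34 to 0.14 for Tab2, -0.084 to 0.048 for Myd88, -0.026 to 0.11 for Stat6, -0.0089 to 0.092 for Jak1, -0.12 to 0.12 for Timp3, -0.059 to 0.096 for Adam10 and -0.42 to 0.069 for Saa3. The log2 ratio of Osmr to Lifr ran from -0.2 to 0.48 and that of Il6st to Lifr from -0.096 to 0.69, both turning without mAC_Mito 2 and the first also without mAC 3 (-0.036); Tnfrsf1a to Tnfrsf1b ran from -0.22 to -0.069 and Il1r1 to Il1rap from -0.21 to -0.092. The cause was not tested. The replicate numbers shared by the groups were not taken as pairing (correlations of same-numbered deviations 0.124, -0.06 and -0.012 over 17645 genes), and not every library correlated best with its own number. With the replicate number as a block, 2 genes were called, 0 of them receptors.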
